A study of Oryctolagus cuniculus with 6 samples.

Results

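The genes described here are those of the Wnt and Notch pathways on a rabbit expression array. They were taken by the wording of the array's own probe descriptions: wingless, frizzled, dishevelled, dickkopf and catenin for Wnt, notch, jagged and delta-like for Notch, plus the gene RBPJ. Of 43603 non-control probes, 61 matched. They stood for 33 genes: 27 Wnt members, 5 Notch members and AGPAT4, an acyltransferase whose description holds the words delta-like and which belongs to neither pathway. The Wnt members follow the wording, so they include CTNNBL1, which shares only the name with the other catenins. Each gene was represented by its probe with the highest mean intensity over the 6 arrays.

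RNA came from whole 6-day-old blastocysts of the New Zealand White rabbit, in 3 groups. Vitrified embryos had been cooled in straws plunged into liquid nitrogen after short steps in dimethyl sulphoxide and ethylene glycol. Frozen embryos had been cooled slowly, with ice seeded by hand, in dimethyl sulphoxide. Embryos of both kinds then developed in recipient females until they were recovered, and only viable ones entered the extracts, so the RNA reflects survivors. Control embryos of the same age were untreated and had developed in vivo. Each array carried 1 treated and 1 control extract under different dyes. There were 3 arrays per treatment, and the dyes were exchanged on the arrays of replicate 2. The labels number the controls 1 to 3 in both comparisons and name 3 control replicates in all, which is read here as the same 3 control extracts in both. This reading rests on the numbers. The paired arrays' deviations from their group means correlated at only 0.017 for replicate 1. The dye effect was not removed from these deviations, and the arrays of a pair had the same dye order. A shared dye effect can therefore enter such correlations, and they cannot decide whether the controls were shared. How many embryos went into an extract is not given in the sources used here.

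Wnt proteins are secreted ligands that bind frizzled receptors. In the canonical branch this spares beta-catenin from a destruction complex, so that it enters the nucleus and acts with TCF and LEF factors; other branches act on cell polarity and movement. Secreted antagonists of the dickkopf and SFRP families limit the signal, and in the early mammalian embryo DKK1 is known as a product of the visceral endoderm that helps to pattern the epiblast. In the Notch pathway a ligand on one cell, such as JAG1, binds a Notch receptor on its neighbour, and proteases release the receptor's intracellular part, which acts with the DNA-binding factor RBPJ on target genes such as HES1 and HEY1.

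The array measures each gene through 60-base probes printed in the sense of the transcript. Wnt ligand probes are shown because they let a reader see how far related ligands can be told apart. For 5 ligands the probe nearest the end of the transcript closes on a stop codon of an open reading frame, as 5.69% of all probes do. Capitals mark the 22 positions that are identical in all 5 probes.
WNT3: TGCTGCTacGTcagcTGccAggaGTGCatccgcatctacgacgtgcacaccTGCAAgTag
WNT5B: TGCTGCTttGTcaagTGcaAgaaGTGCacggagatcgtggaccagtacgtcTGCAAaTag
WNT7A: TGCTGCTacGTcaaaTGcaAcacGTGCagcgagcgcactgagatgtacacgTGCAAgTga
WNT10A: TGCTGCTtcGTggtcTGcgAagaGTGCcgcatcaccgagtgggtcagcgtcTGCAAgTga
WNT10B: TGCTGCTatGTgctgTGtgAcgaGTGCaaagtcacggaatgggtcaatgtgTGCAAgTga
Percent identity between pairs of these probes, compared base by base, ran from 53.3% for WNT5B and WNT10B to 75% for WNT10A and WNT10B. In the coordinates of the array files, whose genome build is not given in the sources used here, the WNT5B probe lies at chr8:36029457-36029516 on the minus strand and the WNT10A probe at chr7:160152442-160152498 on the plus strand.

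Probes of the genes on which the other results turn are shown next. For SFRP2 the probe shown starts at base 500 of the transcript and is not the brightest, which starts at base 1522, has a stop codon in every reading frame and is not shown; the SFRP2 values below come from the brightest unless another is named. In the DKK1 probe capitals mark the closing stop codon. In the WNT2 and SFRP2 probes they mark the stretch shared with 4 further, shifted probes of the same gene, which is 56 bases for WNT2 and 49 bases for SFRP2. The FZD2 and RBPJ probes are the only ones with their symbol on the array.
WNT2: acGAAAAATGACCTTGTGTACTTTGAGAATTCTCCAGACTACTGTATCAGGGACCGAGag
FZD2: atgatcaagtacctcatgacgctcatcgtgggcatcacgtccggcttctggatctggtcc
DKK1: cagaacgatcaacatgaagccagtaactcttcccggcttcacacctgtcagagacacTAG
SFRP2: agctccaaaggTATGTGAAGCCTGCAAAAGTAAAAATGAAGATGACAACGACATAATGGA
RBPJ: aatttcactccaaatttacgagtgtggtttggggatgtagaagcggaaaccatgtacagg
The WNT2 probe lies at chr7:27925063-27925122 and the FZD2 probe at chr19:44799704-44799763, both on the plus strand. The DKK1 probe lies at chr18:33156307-33156366 on the minus strand. The RBPJ probe maps to chr2:16798236-16798467 on the plus strand and the SFRP2 probe to chr15:10012080-10014324 on the minus strand; these intervals are longer than the probe, so each probe crosses an exon junction.

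By the scanner's flags, 44.7% to 58.0% of green and 64.2% to 74.5% of red spot signals on an array were well above background. The number of arrays limits the precision. Checked against the blastocyst label, GATA3, TFAP2C and KRT8 of the trophectoderm, POU5F1 of the epiblast and GATA4 of the endoderm were each well above background in all 12 channel measurements (6 arrays with 2 channels each). The trophectoderm marker ELF5 and the endoderm marker TTR were so in 0 of 12. The 30761 probes that reached this in 3 or more of the 12 were tested. Of the 27 Wnt members 19 were tested and of the 5 Notch members all 5. The 8 Wnt members not tested were the ligands WNT7A, WNT8A, WNT8B, WNT10B and WNT16 and the catenins CTNNA2, CTNNA3 and CTNND2, whose probes were well above background in at most 2 measurements. Of the tested members, 9 Wnt and 2 Notch members were well above background in all 12.

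Values below are log2 ratios of treated over control embryos unless a signal is named. A fitted value comes from a linear model over the 6 arrays in limma with a term for the dye, is given with its standard error (SE, n = 3 arrays per treatment), and is therefore not the plain mean of the 3 arrays. Adjusted p is limma's p after Benjamini-Hochberg over all 30761 tested probes, with 0.05 as the threshold for a call. For vitrified against frozen arrays, an exact test of 3 against 3 could not go below 0.1. That bound does not apply to treated over control, where the ratios of 3 arrays are set against 0.

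No Wnt or Notch member was called in any of the 3 comparisons. In vitrified over control embryos 0.0195% of all tested probes were called, and 2 of 19 Wnt members (WNT5B and CTNNA1) and 1 of 5 Notch members (RBPJ) had an unadjusted p under 0.05, against 17.4% of all probes. In frozen over control embryos 0.185% of probes were called, and 5 of 19 Wnt members (DKK1, SFRP2, FZD2, WNT5B and WNT2) and again RBPJ had an unadjusted p under 0.05, against 13.2% of all probes. In the direct comparison of vitrified with frozen embryos 0% of probes were called, and 3 of 19 Wnt members (WNT5B, FZD2 and CTNNA1) and 0 of 5 Notch members had an unadjusted p under 0.05, against 7.54%. The median over the Wnt members was -0.01 in vitrified and -0.04 in frozen embryos, and that over the Notch members -0.07 in each, beside 0.01 and 0.01 over all tested probes. So the shares of members at an unadjusted p under 0.05 lay on either side of the background, and the median of neither pathway stood far from that of all probes.

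**Figure D1:**
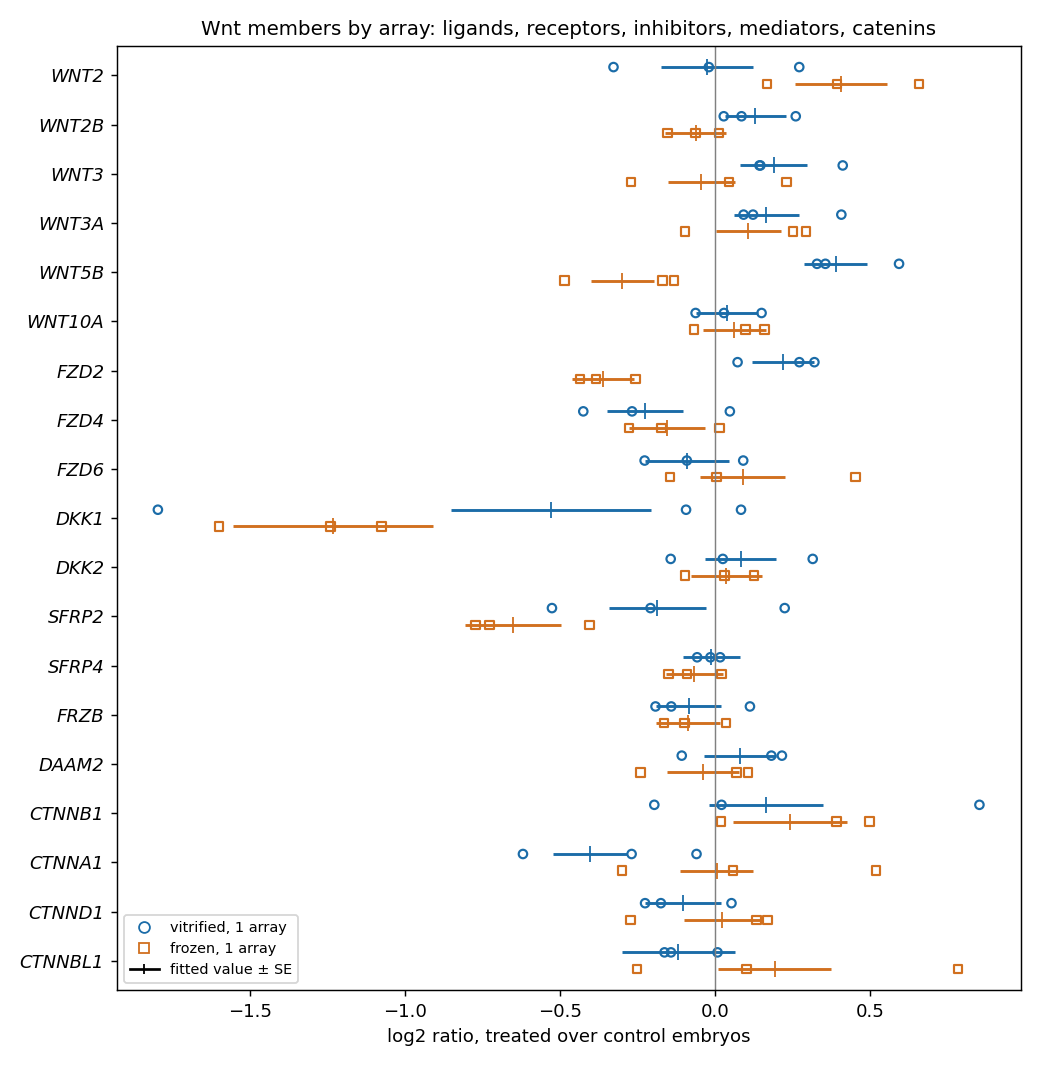
Log2 ratio of treated over control embryos (horizontal axis) for the 19 tested Wnt members, ordered by role; open symbols are single arrays (circles vitrified, squares frozen), and the ticks with bars are fitted values ± SE. Most fitted values lie within 0.3 of 0, DKK1 is at -1.60 to -1.08 on the frozen arrays and at -1.80 on 1 vitrified array, and WNT5B and FZD2 have their vitrified arrays above 0 and their frozen arrays below 0.

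Among the ligands, WNT5B, a ligand best known for branches that do not use beta-catenin, stood apart between the treatments. Its ratio was 0.33, 0.36 and 0.59 on the vitrified arrays and -0.17, -0.49 and -0.13 on the frozen arrays. Every vitrified array was above 0 and every frozen array below 0, so the groups did not overlap. Opposite signs on all 6 arrays, in either direction, occurred for 2.5% of all tested probes, and 5.75% had all vitrified above all frozen arrays. The fitted value was 0.39 (SE 0.10, adjusted p = 0.182) in vitrified and -0.30 (SE 0.10, adjusted p = 0.269) in frozen embryos. The difference of 0.69 (SE 0.14) had an unadjusted p of 0.0013 and an adjusted p of 0.463 in limma and was not called. Within slides, each of which carried arrays of both treatments, vitrified minus frozen was 0.66 on slide 1 and 0.61 on slide 2. Such values, here and below, are differences of plain means without a dye term. Slide 1 carried 1 vitrified array and slide 2 carried 1 frozen array. The dye-swapped frozen array was on slide 1 and the dye-swapped vitrified array on slide 2. In the underlying signals the 6 control measurements of WNT5B spanned 8.94 to 9.26 (log2), and the vitrified signals of 9.58, 9.30 and 9.66 lay above that span. The frozen signals of 9.03, 8.78 and 8.92 lay in its lower part or below it. By the reading above, the 6 control measurements come from 3 extracts, each on 2 arrays. The share of all tested probes with treated signals outside the control span, here and for the genes below, was not counted.

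WNT2 was the ligand with the largest positive value in frozen embryos. Its ratio was 0.66, 0.39 and 0.17 on the frozen arrays and 0.27, -0.02 and -0.33 on the vitrified arrays. All frozen arrays were above 0, as for 15.7% of all tested probes, the vitrified arrays lay on both sides of it, and the groups overlapped. The fitted values were 0.41 (SE 0.15, adjusted p = 0.303) in frozen and -0.03 (SE 0.15, adjusted p = 0.943) in vitrified embryos. The other 4 WNT2 probes, which share 56 bases with the one shown above and so repeat the same measurement, gave 0.35 to 0.41 in frozen embryos.

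WNT3, a ligand of the canonical branch needed in the mouse for the primitive streak, had a pair of probes. The brighter gave 0.14, 0.15 and 0.41 on the vitrified arrays and 0.04, -0.27 and 0.23 on the frozen arrays, with fitted values of 0.19 (SE 0.11, adjusted p = 0.395) and -0.04 (SE 0.11, adjusted p = 0.913). The groups overlapped on that probe, and its vitrified value was 0.07 without vitrified replicate 2. The dimmer, whose sequence is the WNT3 line above, gave 0.28, 0.45 and 0.63 against -0.35, -0.07 and 0.15. The groups did not overlap on it, as for 5.75% of all tested probes with vitrified above frozen arrays. Its fitted value in vitrified embryos was 0.46 (SE 0.13, unadjusted p = 0.00814, adjusted p = 0.188 in limma) and was not called. The probes thus had the same sign in vitrified embryos and differed in size, with a mean over both of 0.32; the scanner's log ratio gave 0.29 for the brighter. WNT2B, WNT3A and WNT10A lay between 0.04 and 0.17 in vitrified and between -0.06 and 0.11 in frozen embryos, all 3 in 5 to 7 of 12 channel measurements well above background.

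The 3 frizzled receptors, which bind Wnt ligands at the cell surface, did not move together. FZD2 was at 0.07, 0.27 and 0.32 on the vitrified arrays and -0.38, -0.44 and -0.26 on the frozen arrays. As for WNT5B, the signs were opposite on all arrays, which occurred for 2.5% of all tested probes. The fit gave 0.22 (SE 0.10, adjusted p = 0.313) in vitrified and -0.36 (SE 0.10, adjusted p = 0.197) in frozen embryos. The difference of 0.58 (SE 0.14, unadjusted p = 0.00338) was not called in limma (adjusted p = 0.562), and was 0.48 on slide 1 and 0.55 on slide 2. The control signals of FZD2 themselves spanned 9.92 to 10.83. This is a span of signals and not of ratios, since a level shared by both channels of an array cancels in the ratio. On vitrified replicate 1 the control signal of 10.83 stood beside a treated signal of 10.90. FZD4, also a receptor for norrin, was at -0.43, -0.27 and 0.05 on the vitrified arrays and -0.28, -0.17 and 0.01 on the frozen arrays. Its fitted values were -0.23 (SE 0.12, adjusted p = 0.379) and -0.16 (SE 0.12, adjusted p = 0.652). The vitrified value was -0.11 without vitrified replicate 1, -0.35 without vitrified replicate 3 and -0.48 from the scanner's log ratio. FZD6 ran from -0.23 to 0.45 over the 6 arrays and was at -0.09 and 0.09 in the fit.

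The secreted inhibitors held the most negative values in frozen embryos. DKK1, which blocks the co-receptors LRP5 and LRP6, was at -1.60, -1.24 and -1.08 on the frozen arrays and at -1.80, -0.09 and 0.08 on the vitrified arrays. All frozen arrays were below 0, as for 14.7% of all tested probes, but vitrified replicate 1 was lower still, so the groups overlapped and the other two vitrified arrays lay near 0. The fitted value in frozen embryos was -1.23 (SE 0.32, unadjusted p = 0.00564, adjusted p = 0.179), or 0.425 of the control signal. Values at or below -1 were found for 0.325% of all tested probes in that comparison. In vitrified embryos the fitted value was -0.53 (SE 0.32, adjusted p = 0.426), and the difference between the treatments was 0.70 (SE 0.44, adjusted p = 0.763).

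The DKK1 signals show what lies behind these ratios. The control signal (log2) was 12.59 and 12.51 on the arrays of replicate 1, 11.89 and 11.49 on those of replicate 2 and 11.76 and 11.62 on those of replicate 3. The control signal was therefore highest on both arrays of replicate 1. The treated signal was 10.80 in vitrified replicate 1 and 11.80 and 11.84 in the other two vitrified extracts. It was 10.91, 10.25 and 10.54 in the frozen extracts, below all 6 control signals, as was that of vitrified replicate 1. These control signals are repeat measurements of 3 extracts by the reading above, and the share of all tested probes with such a separation was not counted.

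**Figure D2:**
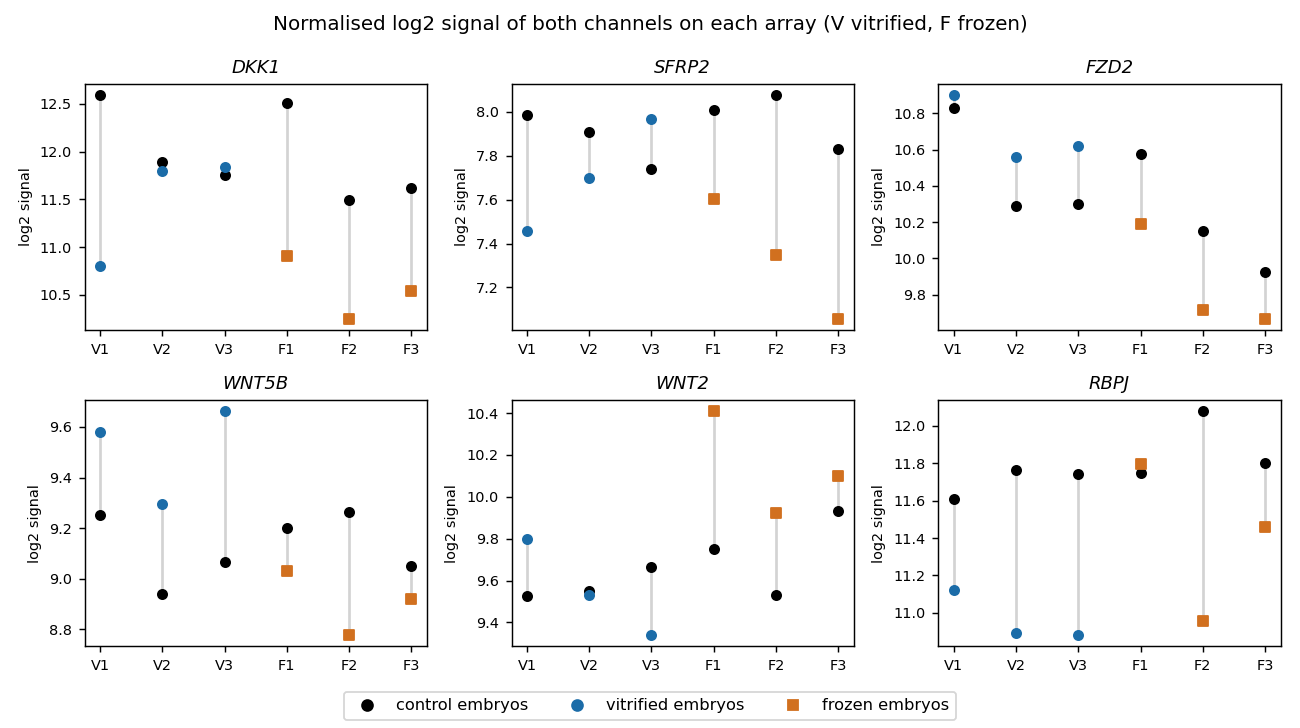
Normalised log2 signal (vertical axis, scale differs by panel) of the treated and control channels on each array (V1 to V3 vitrified, F1 to F3 frozen) for DKK1, SFRP2, FZD2, WNT5B, WNT2 and RBPJ; grey lines join the channels of 1 array. The 3 frozen signals of DKK1 (10.25 to 10.91) lie below all control signals (11.49 to 12.59), whereas the vitrified signals lie at 10.80, 11.80 and 11.84.

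SFRP2, a soluble protein that resembles the ligand-binding part of frizzled and captures Wnt proteins, was at -0.40, -0.73 and -0.77 on the frozen arrays and -0.53, -0.21 and 0.22 on the vitrified arrays. All frozen arrays were below 0, as for 14.7% of all tested probes, and the vitrified arrays spread across 0. In the fit it was at -0.65 (SE 0.16, unadjusted p = 0.00346, adjusted p = 0.162) in frozen and -0.19 (SE 0.16, adjusted p = 0.571) in vitrified embryos. The frozen signals (7.60, 7.35 and 7.06) lay below all 6 control signals, which spanned 7.74 to 8.08, as did the vitrified signals of replicates 1 and 2 (7.46 and 7.70) but not that of replicate 3 (7.97). SFRP2 had 6 tested probes, all negative in frozen embryos, from -0.70 to -0.21, and 3 of them had an unadjusted p under 0.05. Those starting at bases 500 and 501 of the transcript gave -0.70 and -0.41 and those starting 8 to 11 bases further on gave -0.27 to -0.21. The 5 share 49 bases, so the size of the SFRP2 value depended on the probe. The probes at 500 and 501 map to intervals of 2245 bases, which cross an exon junction, and those further on to 60 bases each. The part of this in the values was not tested. The mean over all SFRP2 probes was -0.41 in frozen embryos, and the scanner's own log ratio gave -1.16.

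**Figure D3:**
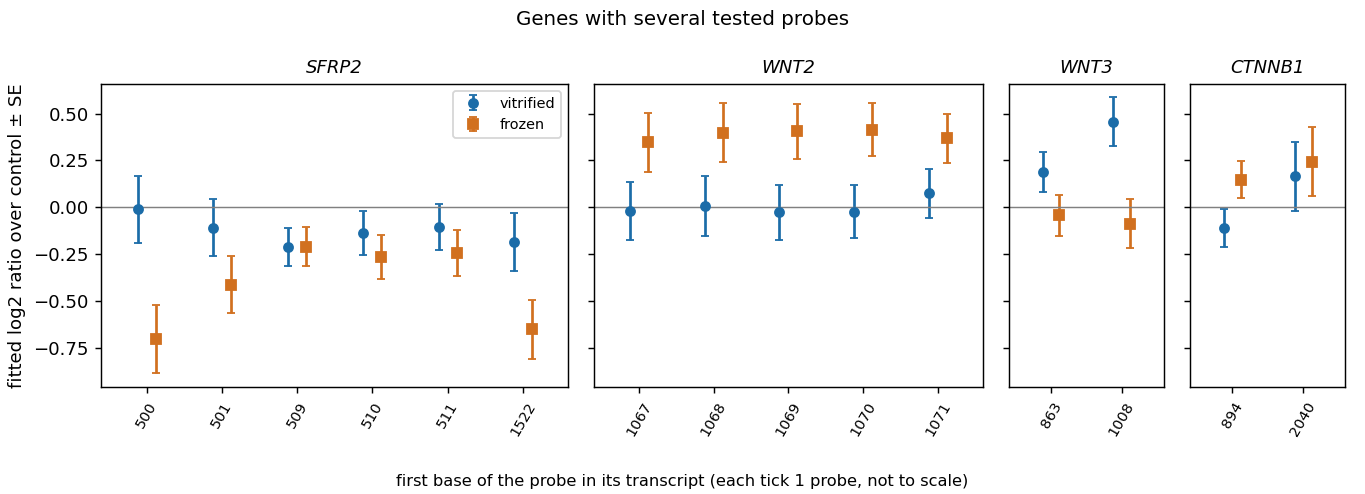
Fitted log2 ratio over control ± SE (vertical axis) for every tested probe of SFRP2, WNT2, WNT3 and CTNNB1, placed by the first base of the probe in its transcript; circles are vitrified and squares frozen embryos. The SFRP2 probes run from -0.70 to -0.21 in frozen embryos, and the 5 overlapping WNT2 probes from 0.35 to 0.41.

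For both inhibitors 1 array decided the call: without vitrified replicate 1, limma called DKK1 at -1.31 (adjusted p = 0.0152) and SFRP2 at -0.68 (adjusted p = 0.0459) in frozen embryos, among 513 probes called there in place of 57. Over all alternatives the adjusted p ran from 0.0152 to 1.000 for DKK1 and from 0.0459 to 1.000 for SFRP2. Leaving out that array took the vitrified value of DKK1 from -0.53 to -0.0049 and the difference between the treatments from 0.70 to 1.30. Without vitrified replicate 3 these were -0.95 and 0.23. The difference was 0.35 with slide as a covariate and 0.48 without replicate 2 of either treatment. Within slides, vitrified minus frozen was -0.38 on slide 1 and 1.07 on slide 2 for DKK1, and 0.04 and 0.78 for SFRP2. The larger differences were thus those of slide 2. These are plain means without a dye term, with 1 vitrified array on slide 1 and 1 frozen array on slide 2. The other inhibitors, DKK2, SFRP4 and FRZB, lay within 0.09 of 0 in both treatments.

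Markers of the hypoblast and endoderm, apart from GATA4, were low on the same arrays as DKK1, as was an epiblast marker given below. Of 10 hypoblast and endoderm markers 5 were tested: the factor GATA4 and the secreted proteins APOA1, APOB, TF and RBP4. Their median was -1.07, 0.10 and 0.43 on the vitrified arrays and -1.35, -1.08 and -0.93 on the frozen arrays, low where DKK1 was low. All 5 were below 0 in frozen embryos, 4 of them with an unadjusted p under 0.05 and none called by limma. Their summed signal was 3616 to 5678 in frozen, 6410 to 12484 in vitrified and 7361 to 14130 in control embryos. GATA4, the transcription factor among them, was at -0.23 in frozen and 0.24 in vitrified embryos. By array GATA4 was at 0.01, 0.34 and 0.38 on the vitrified and -0.09, -0.37 and -0.20 on the frozen arrays. Its signs were thus opposite on all arrays, as for WNT5B and FZD2. The part of endoderm and epiblast markers in the DKK1, SFRP2, WNT5B and FZD2 values was not tested. In RNA of whole blastocysts, fewer cells of a type and less RNA per cell cannot be told apart. The 3 tested epiblast markers had a summed signal of 7670 to 9736 in frozen, 12527 to 16002 in vitrified and 9679 to 18441 in control embryos. Among them POU5F1 was at -0.82, OTX2 at -0.51 and DPPA5 at 0.04 in frozen embryos. By array POU5F1 was at -0.65, -0.17 and 0.63 on the vitrified and -0.94, -0.88 and -0.56 on the frozen arrays. It too was low where DKK1 was low. On vitrified replicate 1 OTX2 was at -0.07 and DPPA5 at 0.75. The 5 tested trophectoderm markers stood on the other side, all above 0 in frozen embryos with a median of 0.34, and 4 of 5 above 0 in vitrified embryos with a median of 0.36. GATA2 was the highest of them, at 0.56 in frozen and 0.72 in vitrified embryos. Their summed signal was 23393 to 25935 in frozen, 25123 to 30891 in vitrified and 16872 to 27750 in control embryos. None of the epiblast and trophectoderm markers was called by limma.

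**Figure D4:**
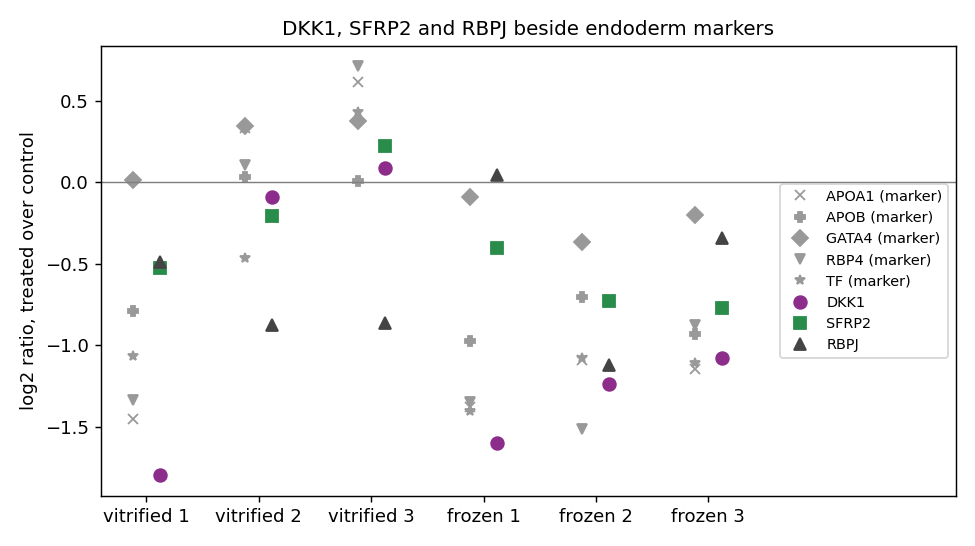
Log2 ratio of treated over control embryos (vertical axis) on each array for DKK1, SFRP2 and RBPJ (coloured or dark symbols) and for the 5 tested hypoblast and endoderm markers (grey symbols). DKK1 and 4 of the markers are low on vitrified replicate 1 and on all frozen arrays, whereas RBPJ is at -0.87 and -0.86 on vitrified replicates 2 and 3 and at 0.05 on frozen replicate 1.

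Inside the cell, beta-catenin (CTNNB1), the mediator of the canonical branch, did not separate the groups. Its brighter probe gave 0.85, 0.02 and -0.20 on the vitrified arrays and 0.50, 0.02 and 0.39 on the frozen arrays. The fitted values were 0.16 (SE 0.18, adjusted p = 0.681) in vitrified and 0.24 (SE 0.18, adjusted p = 0.641) in frozen embryos. Its dimmer probe, starting at base 894 of the transcript where the brighter starts at base 2040, gave -0.11 and 0.15, so the sign in vitrified embryos depended on the probe. DAAM2, a formin that binds dishevelled in the polarity branch, was at 0.08 (SE 0.12) and -0.04 (SE 0.12).

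The other catenins are proteins of cell junctions, apart from CTNNBL1, a spliceosome-associated protein that shares only the name. By the wording of its description it is still counted in all numbers of Wnt members. CTNNA1, which links the cadherin complex to actin, was at -0.27, -0.62 and -0.06 on the vitrified arrays and 0.06, -0.30 and 0.52 on the frozen arrays. All vitrified arrays were below 0, as for 16.9% of all tested probes, and the groups overlapped. The fit gave -0.40 (SE 0.12, unadjusted p = 0.0101, adjusted p = 0.194) in vitrified and 0.01 (SE 0.12, adjusted p = 0.991) in frozen embryos. The difference between the treatments was -0.41 (SE 0.16, adjusted p = 0.647), with -0.15 on slide 1 and -0.86 on slide 2. The control signals of CTNNA1 spanned 10.67 to 11.83, a range of 1.16, which is a span of signals and not of ratios. CTNND1, which binds the cadherin tail, was at -0.10 and 0.02. CTNNBL1 was at -0.12 (SE 0.18) and 0.19 (SE 0.18), the latter set by 0.78 on frozen replicate 3.

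In the Notch pathway RBPJ, the factor that carries the signal to DNA, had the largest values. Its ratio was -0.49, -0.87 and -0.86 on the vitrified arrays and 0.05, -1.12 and -0.34 on the frozen arrays. All vitrified arrays were below 0, as for 16.9% of all tested probes. The frozen arrays ran from near 0 to the lowest value of all, and the groups overlapped. The fitted value in vitrified embryos was -0.84 (SE 0.15, unadjusted p = 0.000761), or 0.559 of the control signal, and was not called (adjusted p = 0.144). That in frozen embryos was -0.57 (SE 0.15, adjusted p = 0.190), and -0.25 without frozen replicate 2. The difference between the treatments was -0.27 (SE 0.21, adjusted p = 0.817), with 0.05 on slide 1 and -0.53 on slide 2. The control signals spanned 11.61 to 12.08, and the vitrified signals of 11.12, 10.89 and 10.88 all lay below them. Of the frozen signals, 10.95 and 11.46 lay below and 11.80 within the control span.

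**Figure D5:**
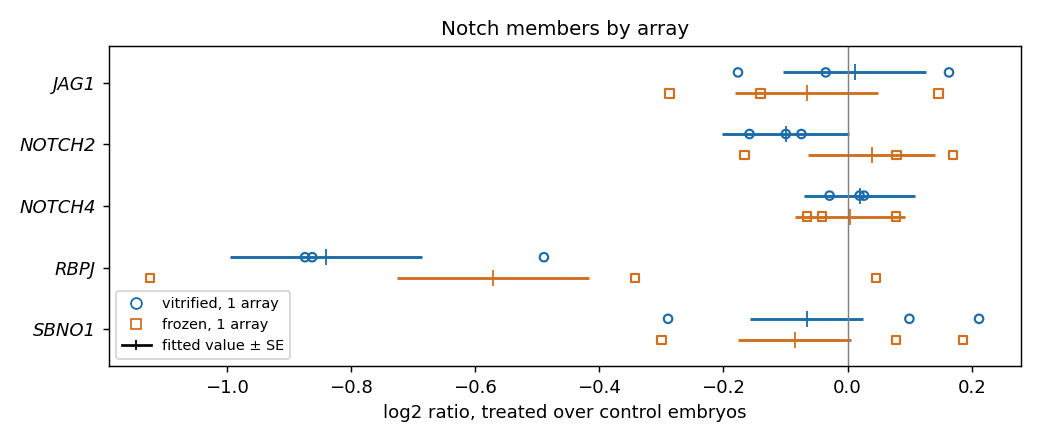
Log2 ratio of treated over control embryos (horizontal axis) for the 5 Notch members; open symbols are single arrays (circles vitrified, squares frozen), and the ticks with bars are fitted values ± SE. RBPJ is at -0.49 to -0.87 on the vitrified arrays and from 0.05 to -1.12 on the frozen arrays, and the other 4 members lie within 0.30 of 0 on every array.

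The ligand JAG1 was at -0.18, -0.04 and 0.16 on the vitrified arrays and -0.14, 0.15 and -0.29 on the frozen arrays. Its fitted values were 0.01 (SE 0.12, adjusted p = 0.970) and -0.07 (SE 0.12, adjusted p = 0.870). The receptor NOTCH2 was at -0.16, -0.07 and -0.10 on the vitrified arrays and at -0.17, 0.08 and 0.17 on the frozen arrays. All its vitrified arrays were slightly below 0, and 16.9% of all tested probes had them below 0. Its fitted values were -0.10 (SE 0.10, adjusted p = 0.651) and 0.04 (SE 0.10, adjusted p = 0.919). The receptor NOTCH4, known from blood vessels, stayed within 0.08 of 0 on every array, with fitted values of 0.02 and 0.00. NOTCH2 and NOTCH4 were well above background in 7 and 8 of 12 measurements, and the array's floor limits how large a decrease they could show. SBNO1, the relative of the fly gene strawberry notch, was at -0.07 (SE 0.09) and -0.08 (SE 0.09), with the dye-swapped arrays at -0.29 and -0.30 and the other arrays between 0.08 and 0.21. Its dimmer probe was at -0.06 and 0.05, with the dye-swapped arrays at -0.12 and -0.03, so the sign in frozen embryos depended on the probe. No probe was given the symbol NOTCH1 or DLK1.

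Markers of blood and of the uterine lining are given beside these values, and limma called none of them. The 3 tested blood markers, with the globin genes HBA and HBB2 among them, had a summed signal of 14948 to 162001 in vitrified, 4249 to 40464 in frozen and 2690 to 11493 in control embryos, while the leukocyte markers PTPRC and CD74 were well above background in 0 and 2 of 12 measurements. The 3 uterine markers, SCGB1A1, WFDC2 and PGR, summed to 3968 to 6975, 1446 to 4134 and 1412 to 3415. The frozen and control ranges of this sum overlapped. By array, SCGB1A1 was at 2.53, 2.52 and 0.55 on the vitrified and 1.25, 2.00 and 0.78 on the frozen arrays. All frozen arrays were thus above 0 for SCGB1A1, as for 15.7% of all tested probes. WFDC2 was at -0.08, 1.80 and 0.91, and at 0.38, 0.79 and -0.80. PGR had fitted values of 0.06 and 0.01. The part of these markers in the WNT5B, CTNNA1 and RBPJ values of vitrified embryos was not tested.

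Further genes of the pathways, not caught by the wording of the descriptions, were taken from a list of 82 Wnt genes, of which 43 outside the members were tested, and 51 Notch genes, of which 28 were. None was called in any comparison by limma. Each of these genes, and each marker, was read from its probe with the highest mean intensity. Some had several probes, such as CHD8 with 5 and MYC with 7, and values of their other probes are not given here. Of the Wnt genes, 6 in the positive and 5 in the negative direction had an unadjusted p under 0.05 in vitrified embryos, or 25.6% against 17.4% of all probes. In frozen embryos they were 5 and 2, or 16.3% against 13.2%, and between the treatments 4 and 1, or 11.6% against 7.54%.

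At the level of Wnt release, PORCN, the enzyme that attaches the lipid a Wnt ligand needs, was at 0.53 (SE 0.17, adjusted p = 0.211) in vitrified and 0.64 (SE 0.17, adjusted p = 0.182) in frozen embryos. On the single arrays it was at 0.63, 0.94 and -0.30, and at 0.38, 0.90 and 0.31, highest on both dye-swapped arrays. WLS, the carrier that brings the ligand to the surface, was at 0.01 in vitrified and 0.53 in frozen embryos, a difference of -0.51 (SE 0.21, adjusted p = 0.649). Its frozen arrays stood at 0.27, 0.40 and 1.06.

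RSPO3, a secreted agonist that amplifies Wnt signals through LGR receptors, had the smallest adjusted p of the list in frozen embryos. It was at -0.74, -0.89 and -0.17 on the frozen arrays and 0.15, -0.41 and 0.37 on the vitrified arrays. All frozen arrays were below 0, as for 14.7% of all tested probes, with the vitrified arrays on both sides of 0. The fitted value was -0.69 (SE 0.13, unadjusted p = 0.000925, adjusted p = 0.116) in frozen and -0.06 (SE 0.13, adjusted p = 0.857) in vitrified embryos, a difference of 0.64 (SE 0.18, adjusted p = 0.592). Its receptor LGR4 was at -0.42 (SE 0.16, adjusted p = 0.254) in vitrified and -0.36 in frozen embryos.

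Around the destruction complex, the kinase CSNK1E was at -0.43 (SE 0.13, adjusted p = 0.213) in frozen embryos and -0.01 in vitrified embryos. TNKS2, a tankyrase that marks the scaffold axin for breakdown, was at -0.57 (SE 0.17, adjusted p = 0.199) in vitrified embryos. In the nucleus, CHD8, a chromatin remodeller that binds beta-catenin, was at 0.51 (SE 0.12, adjusted p = 0.161) in vitrified and 0.07 in frozen embryos. On the single vitrified arrays CHD8 was at 0.42, 0.81 and 0.06, and on the frozen arrays at -0.31, 0.26 and 0.02. It was highest on the dye-swapped array of each treatment. Of the 4 tested target genes, MYC was at 0.33 in vitrified and 0.55 (SE 0.14, adjusted p = 0.179) in frozen embryos. CCND2, a cyclin, was at 0.46 (SE 0.12, adjusted p = 0.180) and 0.04. Its vitrified arrays were at 0.26, 0.65 and 0.15 and its frozen arrays at -0.54, 0.49 and -0.15, again highest on both dye-swapped arrays. TBXT, the primitive streak factor, was at 0.09 and -0.02 with 4 of 12 measurements well above background. The 6 planar polarity genes lay between -0.12 and 0.20 in both treatments.

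Of the 28 further Notch genes, 4 in the positive and 1 in the negative direction had an unadjusted p under 0.05 in vitrified embryos, or 17.9% against 17.4% of all probes. In frozen embryos it was 1 gene, or 3.57% against 13.2%, and between the treatments 2 genes, or 7.14% against 7.54%. ADAM10, the protease that makes the outer cut in the receptor, was at -1.03, -0.73 and -0.07 on the vitrified arrays, with a fitted value of -0.67 (SE 0.23, adjusted p = 0.225). Of the 5 tested proteases it was the only gene below 0 in vitrified embryos. PSENEN, a subunit of the gamma-secretase that makes the inner cut, was at 0.57, 0.75 and 0.19 on these arrays, with a fitted value of 0.54 (SE 0.11, adjusted p = 0.148), the smallest adjusted p among the 28 further Notch genes there. NUMB, which restrains Notch by sending it to endosomes, was at 0.96, 0.64 and 0.19 on the same arrays, with a fitted value of 0.63 (SE 0.17, adjusted p = 0.186). On both genes vitrified replicate 3 lay closest to 0. The target CDKN1A, an inhibitor of the cell cycle, was at 0.63 (SE 0.14, adjusted p = 0.151) in vitrified and 0.17 in frozen embryos, a difference of 0.46 (SE 0.19, adjusted p = 0.652). FBXW7, which tags the Notch intracellular part for breakdown, was at 0.45 (SE 0.14, adjusted p = 0.202) and 0.01. GATA3, a target that is also a trophectoderm factor, was at 0.46 (SE 0.14, adjusted p = 0.223) in frozen embryos. The 6 tested Notch targets, with HES1 and HEY1 among them, had a median of 0.12 in vitrified and 0.05 in frozen embryos.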

How the data were processed

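The intensity columns used here hold, per the file headers, mean spot signals and median local backgrounds of each channel before normalisation; per the submitters' processing notes they were made with Agilent Feature Extraction 10.10.1.1. A log10 ratio (red over green) deposited beside them, corrected for background and dye by the scanner per the file headers, served as an alternative. Background was corrected in limma 3.58.1 under R 4.3.3 (normexp, offset 50), followed by loess within arrays with control spots at weight 0, omission of outlier spots and averaging of spots of a probe. Ratios were turned to treated over control. Coefficients for each treatment and the dye were fitted over all 6 arrays, with eBayes; 3 residual degrees of freedom remained. Signals were quantile-normalised on their average. The fit was tested on simulated data.

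Of 43603 probes, 21512 had a symbol from the files or a gene table of assembly mOryCun1.1, and 22 matched several genes. The members and lists were chosen with earlier results of these data known. Single-array values of CHD8, CCND2, POU5F1, GATA4, SCGB1A1 and WFDC2 were also chosen after the values were seen. Text names members at unadjusted p under 0.05 with their direction on all 3 arrays, the 3 largest values per direction, RBPJ and CTNNB1, and up to 2 further pathway genes per list and direction; the rest are given by range, apart from AGPAT4, WNT11, WNT5A, WLS in frozen embryos, FBXW7, CCND2, PSENEN, TBXT and SBNO1 by array, named after their values were seen. Same-numbered arrays carry control samples of the same number per the labels. Their deviations from the group means, with the dye effect not removed, correlated at 0.017, 0.59 and 0.17. Labels call the replicates biological. Alternatives covered background, normalisation, filter, dye, block, slide, prior, probe choice and leaving out each array.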

Additional observations from a re-analysis of the deposited data

Results flagged for a closer look

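WNT5B and FZD2 differed between the treatments in that all 3 vitrified arrays lay above 0 and all 3 frozen arrays below 0. The difference, vitrified minus frozen, was 0.69 for WNT5B and 0.58 for FZD2, and in limma's test of that difference neither was called (adjusted p = 0.463 and 0.562). Opposite signs on all 6 arrays, in either direction, occurred for 2.5% of the tested probes.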

How the results depend on the processing

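No Notch member was called under any of the alternatives, and no Wnt member in vitrified embryos or between the treatments. In a fit with a random replicate block 0 Wnt and 0 Notch members were called, and the block changed no call of a member. Called Wnt members in frozen embryos numbered 0 to 2 when single arrays were left out, with DKK1 and SFRP2 called without vitrified replicate 1. Wnt members at unadjusted p under 0.05 numbered 0 to 6 in vitrified embryos, 0 to 5 in frozen embryos and 2 to 5 between treatments when single arrays were left out, and 4 with slide as a covariate and 1 without the dye term in vitrified embryos. The Notch count in frozen embryos was 0 to 1 when single arrays were left out. The scanner's log ratio moved the medians in frozen embryos to -0.13 for Wnt and -0.22 for Notch. Median centring moved the Notch median to -0.17 in vitrified embryos and to -0.14 between treatments. Values near 0 changed sign, and the cause was not tested. Leaving out single arrays gave, in vitrified embryos, -0.088 to 0.44 for CTNNB1, -0.11 to 0.17 for JAG1 and -0.0012 to 0.061 for NOTCH4. In frozen embryos it gave -0.075 to 0.44 for CTNNBL1, -0.23 to 0.0032 for JAG1, -0.043 to 0.12 for NOTCH2 and -0.038 to 0.019 for NOTCH4. For vitrified minus frozen it gave -0.37 to 0.23 for CTNNB1, -0.057 to 0.21 for JAG1, -0.0083 to 0.048 for NOTCH4 and -0.014 to 0.050 for SBNO1. With the sign kept it gave -0.53 to -0.26 for CTNNA1, -0.60 to -0.0048 for CTNNBL1, -0.53 to -0.084 for RBPJ and -0.60 to -0.26 for WNT2 between treatments, and 0.14 to 0.30 for FZD2 in vitrified embryos. With slide as a covariate CTNNB1 was at 0.057 between treatments. Median centring gave -0.046 for JAG1 in vitrified embryos, -0.014 for NOTCH4 in frozen embryos and -0.14 for SBNO1 between treatments. The scanner's log ratio gave -0.22 for NOTCH4 in frozen embryos, and the mean over all probes of a gene gave -0.0445 for SBNO1 between treatments. Without the dye term JAG1 was at -0.016 and SBNO1 at 0.0075 in vitrified embryos and NOTCH4 at -0.0093 in frozen embryos. Members near background, such as WNT3A with 5 of 12 measurements well above it, could show only part of any difference.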

Other observations

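The ligands WNT5A and WNT11 were on the array under descriptions that the wording did not catch. WNT11, known for cell movements at gastrulation, was at -0.94, 0.33 and 0.23 on the vitrified arrays and -0.83, -0.45 and -0.35 on the frozen arrays. As for DKK1, vitrified replicate 1 was the lowest array, and all frozen arrays were below 0, as for 14.7% of all tested probes. The fitted value was -0.48 (SE 0.22, adjusted p = 0.418 in limma) in frozen and -0.06 (SE 0.22, adjusted p = 0.913) in vitrified embryos. WNT5A, well above background in 6 of 12 measurements, was at -0.11 and 0.12.

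AGPAT4, which the wording caught although it is an acyltransferase of lipid synthesis, was at -0.59, -0.72 and -0.43 on the frozen arrays and -0.14, 0.24 and 0.18 on the vitrified arrays. The groups did not overlap, as for 5.75% of tested probes with vitrified above frozen arrays. The fitted value was -0.58 (SE 0.12, adjusted p = 0.126 in limma) in frozen embryos, and the treatments differed by 0.67 (SE 0.16, adjusted p = 0.562).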
